A study of Mus musculus with 37 samples.

Results

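The 49 genes described here are those whose annotated symbol begins with Psm, followed by one of the letters a to g and a number. They are the genes of the proteasome, its activators, its inhibitor and its assembly factors, and they were found among 18193 genes with a probe set of 1 symbol. The rule took them by name and not by any measured value. The members and the other gene lists used below were, however, chosen with earlier results of these data known. Each gene was represented by its brightest probe set, a group of short probes for 1 transcript, and the 49 genes had 103 of the 45037 probe sets. Of the 49 genes, 47 encode subunits, activators, the inhibitor or assembly factors, and Psmc3ip and Psme3ip1 are named after a proteasome gene but encode interacting proteins. A further probe set carried the symbols Psme2b and Psme2 together and named no gene by itself, so it was kept apart.

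Cortical RNA was taken from 37 mice aged 9 wk and hybridised to Affymetrix arrays, 1 array per mouse, and the deposited values are log2 expression levels. The 9 WT mice carried neither allele. The 9 Hdac4HET mice (HDAC4het in the labels) carried 1 knock-out allele of Hdac4, a class IIa histone deacetylase, in every tissue, and the allele was made in a further strain, so that sequence of that strain linked to Hdac4 came with it. The 9 R6/2 mice were hemizygous for a transgene of the first exon of mutant huntingtin, a fast model of Huntington's disease. The 10 Dble::R6/2 mice (R6/2::HDAC4het in the labels) carried both. All mice were of mixed CBA and C57BL/6 descent, and the labels gave 17 as female and 20 as male. The arrays were made to ask whether a reduced level of Hdac4 changes the transcriptional effects of the transgene.

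Hdac4 itself followed the labels, at 7.70 to 8.02 on the arrays with the null allele and 8.28 to 8.64 on the others. Array medians lay between 6.16 and 6.21, and arrays of 1 genotype correlated at 0.993 to 0.998 over probe sets, with no identical pair. Olfactory bulb markers were raised on 8 arrays, of which 7 were Hdac4HET and 1 was Dble::R6/2. The sex-linked genes of 6 arrays went against the labelled sex. Markers of neurons were present at high levels, and the mean of 11 of them lay between 11.78 and 11.95 in WT cortex and between 11.62 and 11.73 in R6/2 cortex.

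The proteasome degrades proteins that have been tagged with ubiquitin. Its 20S core is a barrel of 4 stacked rings, in which alpha subunits form the outer rings and gate the entrance while beta subunits form the inner rings and hold the cutting sites. The 19S regulatory particle sits on the end of the barrel, and with it the complex is called 26S. The base of this particle unfolds substrates with a ring of ATPases, and its lid removes the ubiquitin chain. In neurons the proteasome clears misfolded proteins and turns over synaptic ones, and fragments of mutant huntingtin collect in inclusions that also hold ubiquitin. Interferon can replace the cutting subunits by the immune subunits Psmb8, Psmb9 and Psmb10 and raises the PA28 activator.

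The R6/2 transgene went with more RNA of the proteasome genes, by small amounts and across nearly all classes. At an adjusted p under 0.05 with limma, at any size of change, 35 of the 49 genes were higher and 2 were lower, and 12 were not called. Over all 18193 genes, 28.1% were higher and 18.4% were lower by the same rule. The proteasome genes are bright, with 30 of 49 among the brightest 10% of probe sets, and of the 1823 genes at or above their median level 39.4% were higher. The median log2 change of the 49 genes was 0.13, or 9.24%, beside 0.001 over all genes and 0.037 over the genes of that brightness. Of the genes called higher, 30 rose by 0.1 or more on the log2 scale and 11 by 0.2 or more. Shares over all genes were not counted at these sizes, so the counts describe the 49 genes only. With both thresholds, adjusted p under 0.05 and a change above 1.3-fold, 1 gene was higher and 0 were lower, against 3.75% higher and 3.3% lower over all genes. In bulk cortex, fewer cells of a type and less RNA per cell cannot be told apart, and the same holds for more of either.

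The largest rise among the 49 was that of Psme1, which encodes the alpha subunit of PA28, a cap that opens the core without ubiquitin. Its level ran from 9.26 to 9.62 with a median of 9.56 on the WT arrays and from 9.67 to 10.10 with a median of 9.96 on the R6/2 arrays. Every R6/2 array lay above every WT array. The log2 change was 0.44 (SE 0.054), or 36.0%, with an adjusted p of 1.4e-08. PA28 alpha pairs with a beta subunit encoded by Psme2, and the probe set shared by Psme2b and Psme2 ran from 9.20 to 9.46 in WT and from 9.49 to 9.72 in R6/2 cortex, again with no overlap. Its change was 0.31 (SE 0.030), with an adjusted p of 1.6e-10. Psme3 encodes the nuclear form, PA28 gamma, and rose from a median of 8.50 to one of 8.68, with overlapping arrays and a change of 0.22 (SE 0.039, adjusted p = 1.3e-05). Psme4 encodes PA200, a further cap of the core, and had a change of -0.026 (SE 0.047, adjusted p = 0.69).

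**Figure D1:**
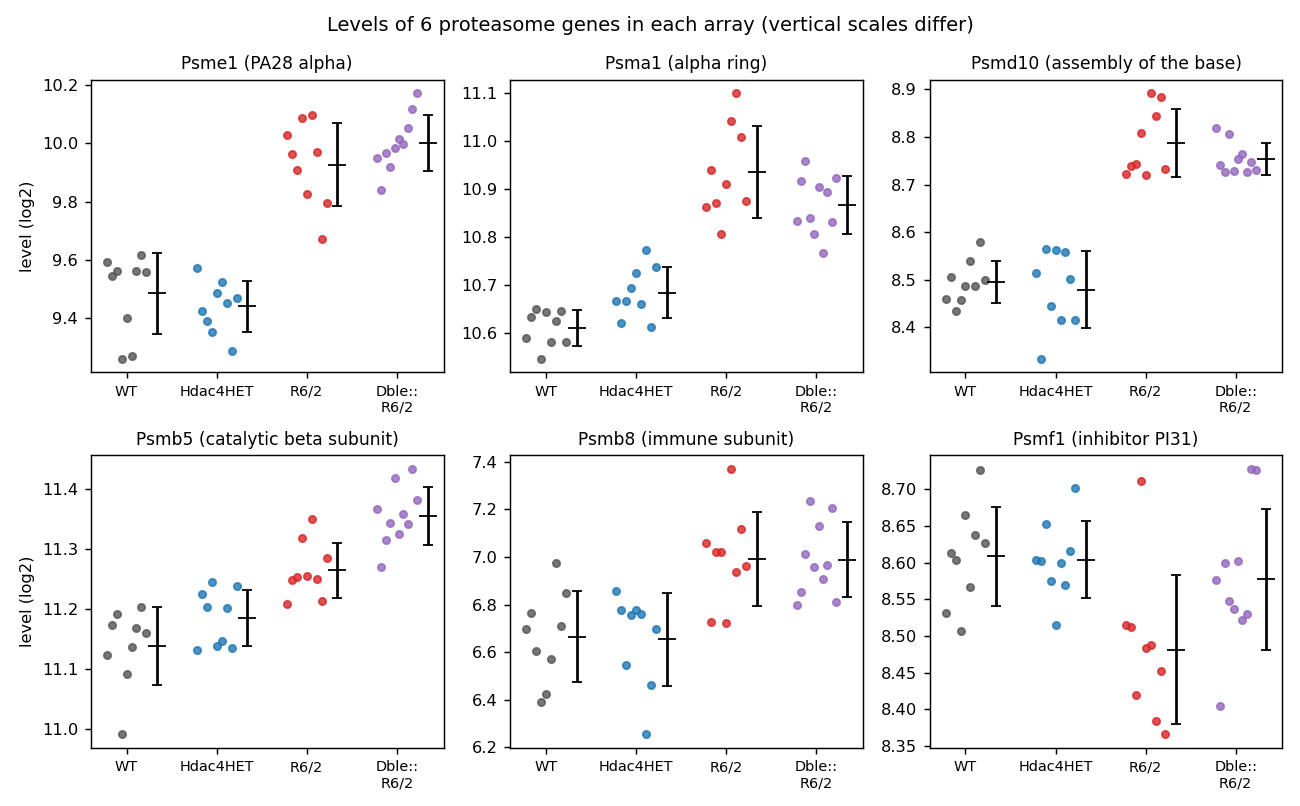
Log2 levels of 6 proteasome genes (vertical axes, which differ in range) on each of the 37 arrays, with arrays of WT, Hdac4HET, R6/2 and Dble::R6/2 mice side by side on the horizontal axis; black bars give the mean and SD of a genotype. The R6/2 arrays of Psme1 (9.67 to 10.10), Psma1, Psmd10 and Psmb5 all lie above the WT arrays, those of Psmb8 overlap with WT, and those of Psmf1 are mostly lower.

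Of the 7 alpha subunits of the core, 6 rose and the median change was 0.17. Psma1 rose most among the subunits of the standard 26S complex. Its level ran from 10.55 to 10.65 with a median of 10.63 in WT and from 10.81 to 11.10 with a median of 10.91 in R6/2 cortex. These ranges did not overlap, and the change was 0.32 (SE 0.031), or 25.2%, with an adjusted p of 7.5e-11. Psma2, Psma3, whose product helps to close the gate, and Psma4 rose by 0.19, 0.18 and 0.17, and for each of them every R6/2 array was above every WT array. Psma6 and Psma5 rose by less, with changes of 0.090 (SE 0.024, adjusted p = 0.0027) and 0.081 (SE 0.030, adjusted p = 0.029), and the call of Psma5 was lost without the arrays against the labelled sex (adjusted p = 0.077) or with the methods' t-test (adjusted p = 0.063). Psma7 was the exception in the ring, at 10.58 to 10.77 in WT and 10.53 to 10.82 in R6/2 cortex, with a change of -0.024 (SE 0.035, adjusted p = 0.63).

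Of the 7 standard beta subunits, 4 rose, and the median change was 0.12. Only 3 beta subunits cut peptide bonds. Psmb5, the chymotrypsin-like subunit and the main target of proteasome inhibitor drugs, ran from 10.99 to 11.20 with a median of 11.16 in WT and from 11.21 to 11.35 with a median of 11.25 in R6/2 cortex. The groups did not overlap, and the change was 0.13 (SE 0.026, adjusted p = 0.00011). Psmb7, the trypsin-like subunit, had a WT median of 10.48 and an R6/2 median of 10.65, with a change of 0.20 (SE 0.035, adjusted p = 1.1e-05). Psmb6, the caspase-like subunit, had medians of 10.95 and 11.02, with a change of 0.057 (SE 0.026) that was not called at an adjusted p of 0.076. Among the subunits without a cutting site, Psmb4 and Psmb1 rose by 0.13 and 0.12, whereas Psmb3 had a change of 0.058 (adjusted p = 0.054) and Psmb2 one of 0.054 (adjusted p = 0.31).

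**Figure D2:**
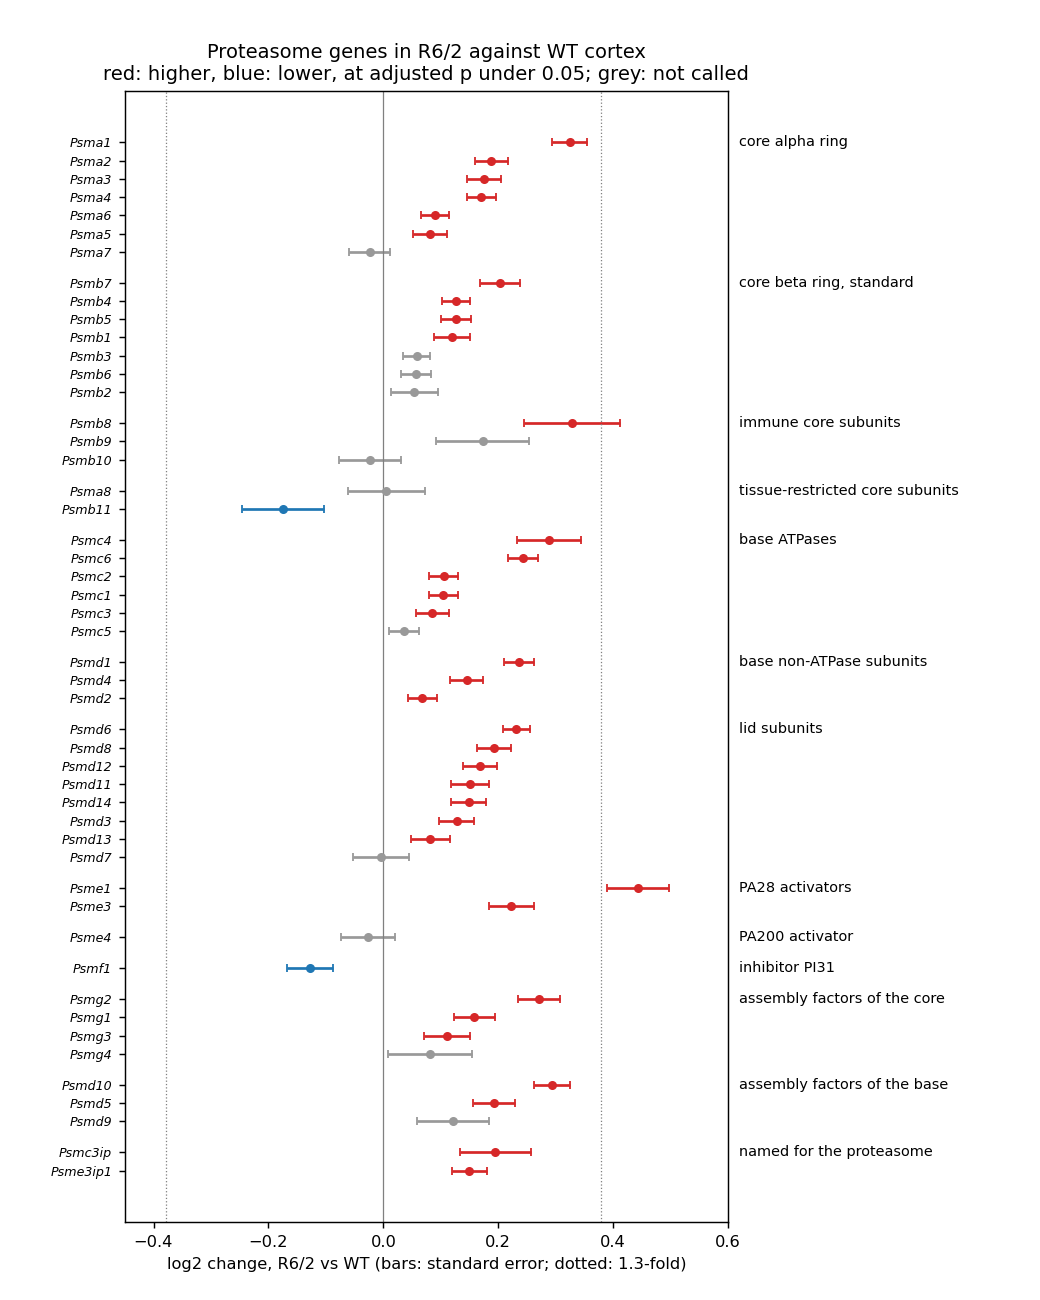
Log2 change in R6/2 against WT cortex (horizontal axis) of each of the 49 genes, listed by class down the vertical axis; points are limma estimates on the brightest probe set, bars are standard errors, and dotted lines mark 1.3-fold. Points called higher at an adjusted p under 0.05 stand to the right of 0 in every class of the 26S complex, 1 gene (Psme1, 0.44) passes the dotted line, and Psmf1 and Psmb11 are the 2 genes called lower.

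In the 19S particle 15 of 17 genes rose, with a median change of 0.14. No gene of the 31 in the standard 26S complex was lower, and 25 of them rose. Of the 6 ATPases of the base, which thread substrates into the core, 5 rose. Psmc6 had levels of 10.24 to 10.37 in WT and 10.49 to 10.67 in R6/2 cortex, with no overlap and a change of 0.24 (SE 0.026, adjusted p = 7.6e-10). Psmc4 rose by 0.29 (SE 0.056, adjusted p = 6.8e-05), but its arrays spread more widely, from 10.79 to 11.21 in WT and from 11.05 to 11.54 in R6/2 cortex. Its less bright probe set separated the groups, with a change of 0.19 (SE 0.026) and an adjusted p of 1.1e-07. Psmc2 and Psmc1 both rose by 0.10 and Psmc3 by 0.086. Psmc5, the remaining ATPase, had a change of 0.037 (SE 0.026, adjusted p = 0.28).

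All 3 further base subunits rose. Psmd1, a large scaffold of the base, ran from 11.12 to 11.28 with a median of 11.23 in WT and from 11.38 to 11.53 with a median of 11.45 in R6/2 cortex. The R6/2 arrays lay above all WT arrays, with a change of 0.24 (SE 0.026, adjusted p = 1.9e-09). Psmd4, a receptor for ubiquitin chains, rose by 0.14 (SE 0.029, adjusted p = 0.00012), and Psmd2, which docks shuttle proteins that carry ubiquitinated substrates, by 0.068 (SE 0.025, adjusted p = 0.027). Of the 8 lid genes, 7 rose, with a median change of 0.15. Psmd6 ran from 10.83 to 11.02 in WT and from 11.14 to 11.28 in R6/2 cortex, with no overlap, and its change was 0.23 (SE 0.024, adjusted p = 4e-10). Psmd8 and Psmd12 rose by 0.19 and 0.17. Psmd14, the enzyme of the lid that removes ubiquitin chains, rose by 0.15 (SE 0.031, adjusted p = 0.00016). Its structural partner Psmd7 had a change of -0.0045 (SE 0.049, adjusted p = 0.95), with levels of 10.06 to 10.27 in WT and 9.97 to 10.28 in R6/2 cortex. Psmd13 lay just inside the threshold, with a change of 0.082 and an adjusted p of 0.0496, and its call was lost when any of 26 of the 37 arrays was left out.

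**Figure D3:**
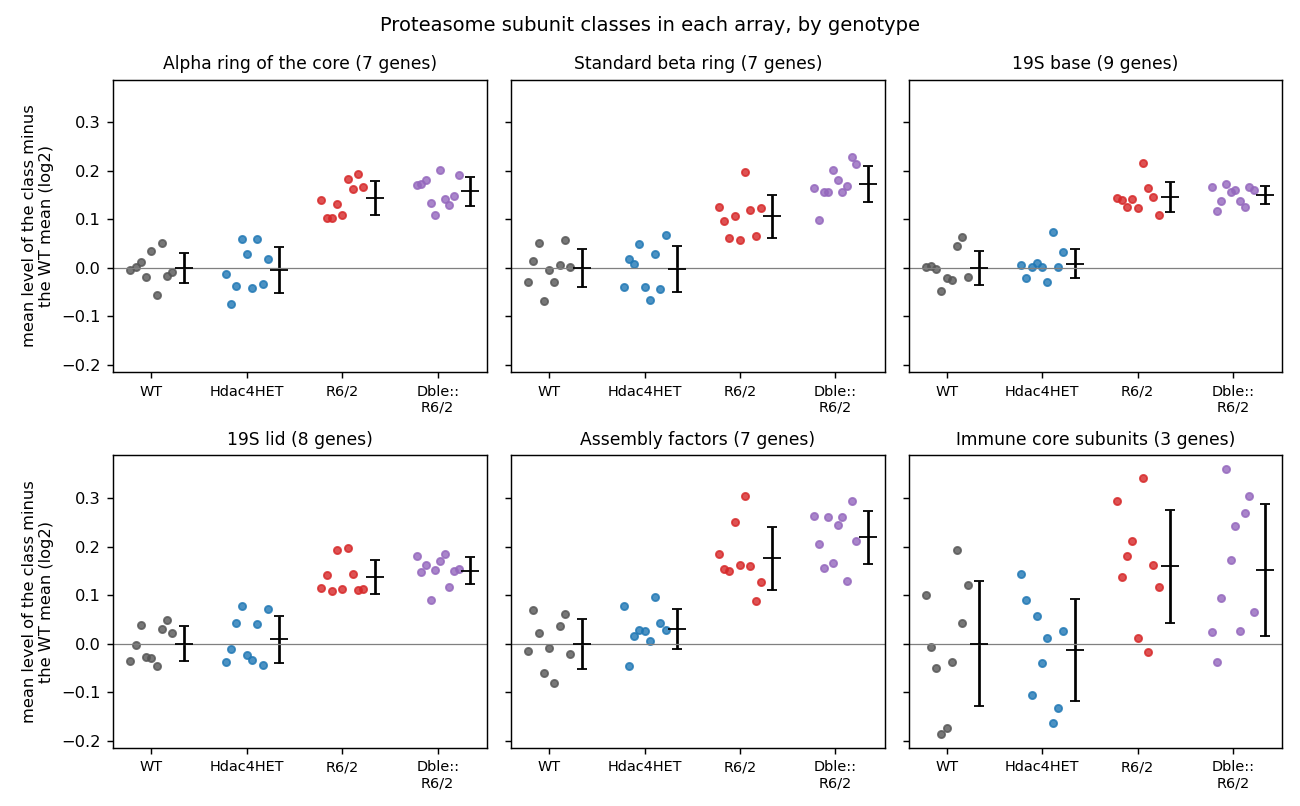
Mean log2 level of the genes of each class minus the WT mean of that class (vertical axis) on each array, by genotype (horizontal axis); black bars give the mean and SD over arrays. In the alpha ring, the base, the lid and the assembly factors every array with the R6/2 transgene sits above every WT array, in the beta ring the lowest R6/2 array meets the highest WT array (both at a mean level of 10.98), and the 3 immune subunits spread widely in every genotype.

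Averaged over the 31 standard subunits, the level ran from 10.84 to 10.92 on the WT arrays and from 10.98 to 11.08 on the R6/2 arrays. On the Hdac4HET arrays it ran from 10.84 to 10.93, and on the Dble::R6/2 arrays from 11.01 to 11.06. The arrays thus fell into separate ranges by the transgene and not by the Hdac4 allele. Over the 49 genes, 11 had every R6/2 array above every WT array, or 22.4%, against 8.36% of all genes. They were Psma1, Psma2, Psma3, Psma4, Psmb5, Psmc6, Psmd1, Psmd6, Psmd10, Psmg2 and Psme1.

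The immune subunits, which replace the cutting subunits of the core in immune cells and after interferon, did not move as 1 group. Psmb8 ran from 6.39 to 6.97 with a median of 6.70 in WT and from 6.72 to 7.37 with a median of 7.02 in R6/2 cortex. The groups overlapped, although all 9 R6/2 arrays were above the WT median, and the change was 0.33 (SE 0.084, adjusted p = 0.0018). Psmb9 had medians of 6.50 and 6.78, with a change of 0.17 (SE 0.081) that was not called (adjusted p = 0.089). Psmb10 had medians of 9.56 and 9.54, with a change of -0.023 (SE 0.054, adjusted p = 0.77). Psmb8 and Psmb9 lay near the middle of the levels of all probe sets, at percentiles 58.2 and 55.2, and Psmb10 at percentile 87.6.

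Some other genes of the interferon response and of antigen presentation were also higher in R6/2 than in WT cortex. Of 15 measured genes listed for these processes, 10 were higher on the R6/2 than on the WT arrays and 0 were lower. The shares over all genes were 28.1% higher and 18.4% lower. Of the 15, 6 were higher by over 1.3-fold, against 3.75% of all genes. In Dble::R6/2 against Hdac4HET cortex 8 of the 15 were higher and 0 were lower, against 28.4% and 14.1% of all genes. In that comparison 4 were higher by over 1.3-fold, against 2.6% of all genes. The mean level of the list ran from 6.79 to 7.08 in WT and from 7.01 to 7.50 in R6/2 cortex. Examples were Ifit1, an antiviral RNA-binding protein, at 0.98 (SE 0.17, adjusted p = 1e-05), and Tap2, a subunit of the peptide transporter that takes proteasome products to MHC class I, at 0.31 (SE 0.066, adjusted p = 0.00022). Tap1, its partner, had a change of -0.021 (adjusted p = 0.84). Of 12 microglia markers, 6 were lower and 0 were higher, and the mean of these markers ran from 8.47 to 8.72 in WT and from 8.27 to 8.68 in R6/2 cortex. The part of these genes in the rise of Psme1 and Psmb8 was not tested. Markers of other cell types also moved, with 9 of 11 neuronal, 7 of 9 astrocyte and 6 of 8 oligodendrocyte markers lower and 2 of 7 endothelial markers higher, and their part in the proteasome changes was not tested.

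Psma8, the alpha subunit of the testis, and Psmb11, the beta subunit of the thymus cortex, are members that cortex is not known to use. Their probe sets lay at percentiles 22.2 and 13.5 of all levels. Psma8 had a change of 0.0050 (adjusted p = 0.96). Psmb11 was called lower by 0.17 (adjusted p = 0.047), from a median of 3.93 to one of 3.70, and this call was lost with sex as a term (adjusted p = 0.051), with the methods' t-test, with only the genotypes compared, with quantile normalization (change -0.13, adjusted p = 0.15) and with the replicate block. The 2 genes that only share the name were both higher, Psmc3ip, a recombination factor, by 0.19 (SE 0.062, adjusted p = 0.011) and Psme3ip1 by 0.15 (SE 0.031, adjusted p = 0.00014).

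The genes that build the proteasome rose with its subunits, with 5 of 7 called and a median change of 0.16. Psmd10, which encodes gankyrin and chaperones the assembly of the base, ran from 8.43 to 8.58 with a median of 8.49 in WT and from 8.72 to 8.89 with a median of 8.74 in R6/2 cortex. There was no overlap, and the change was 0.29 (SE 0.031), or 22.6%, with an adjusted p of 8.6e-10. Psmd5, a chaperone of the same step, rose by 0.19 (SE 0.037, adjusted p = 5.7e-05), and Psmd9 had a change of 0.12 (SE 0.063, adjusted p = 0.13). Psmg1 and Psmg2 encode a pair of proteins that start the alpha ring. Psmg2 ran from 8.83 to 9.02 in WT and from 9.06 to 9.28 in R6/2 cortex, with no overlap and a change of 0.27 (SE 0.037, adjusted p = 1.4e-07), and Psmg1 rose by 0.16 (SE 0.035, adjusted p = 0.00037). Of the second pair, Psmg3 rose by 0.11 (adjusted p = 0.024) and Psmg4 had a change of 0.081 (SE 0.074, adjusted p = 0.41).

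Psmf1 encodes PI31, which binds the core and blocks its activity in the test tube, and it depended on the probe set. The brightest of its 4 probe sets fell by 0.13 (SE 0.040, adjusted p = 0.01), from a median of 8.61 in WT to one of 8.48 in R6/2 cortex. Of the 9 R6/2 arrays, 1 was above the WT median. The next probe set of Psmf1 by brightness rose from a mean of 7.92 to one of 8.27, a change of 0.35 (SE 0.050, adjusted p = 3.5e-07), and a further one rose by 0.25 (SE 0.063, adjusted p = 0.0014). The probe sets of Psmf1 therefore gave no single direction.

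The probe sets were compared within each of the 27 genes that had more than 1. Of the 54 less bright probe sets, 24 were higher and 6 were lower in R6/2 against WT, and 24 were not called. Among the 27 of them above the median level of all probe sets, 17 were higher and 2 were lower. The 2 lower ones were probe sets of Psmd11 and Psmd9. Among the 27 at or below that level, 7 were higher and 4 were lower. The change had the sign of the gene's brightest probe set for 33 of the 54. These were 19 above that level and 14 at or below it. No share over all probe sets of the series, or over all less bright ones, was set beside the counts of probe sets in this paragraph. They therefore describe these probe sets only. Psmd11, a lid subunit whose amount can limit assembly, had 8 probe sets. Its 3 brightest rose by 0.15, 0.25 and 0.23, and the fourth fell by 0.24 (SE 0.043, adjusted p = 1.6e-05), so the probe sets of Psmd11 did not move together. Psmd9 had a brightest probe set that was not called, a second that fell by 0.23 (SE 0.058, adjusted p = 0.0015) and a further one, at a level of 5.13, that rose by 0.47 (SE 0.074, adjusted p = 2.5e-06) with no overlap between the groups. A less bright probe set of Psmc6 rose by 0.38 (SE 0.11, adjusted p = 0.0051). With Psme1, these made 3 probe sets of 103 past both thresholds, all higher. On the least bright probe sets of Psma5, Psmb8, Psmd4 and Psme3 the change was below 0, and none of these was called.

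**Figure D4:**
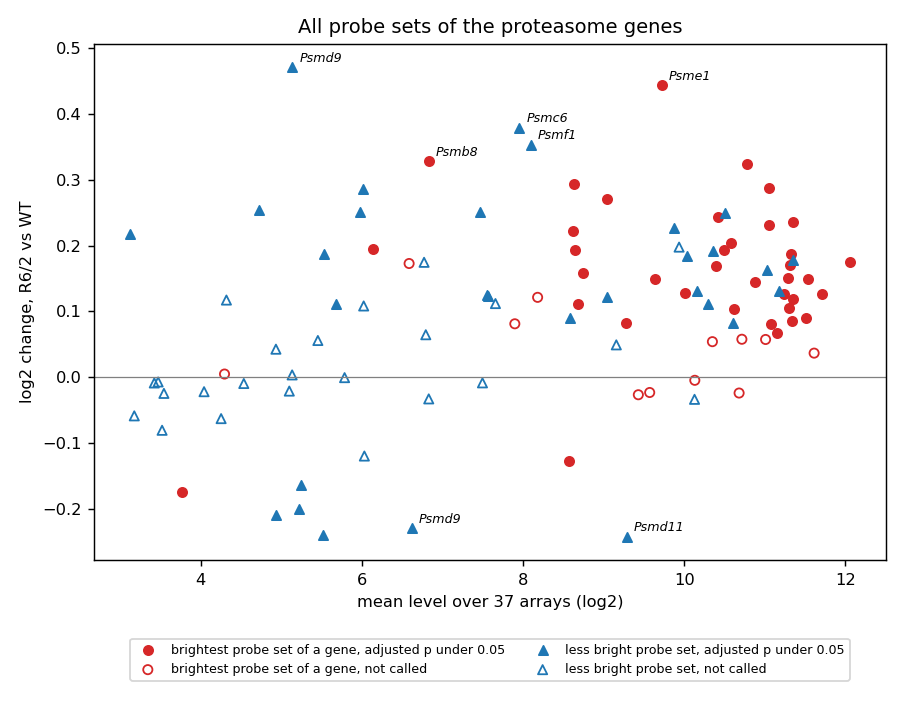
Log2 change in R6/2 against WT cortex (vertical axis) of the 103 probe sets of the proteasome genes against their mean log2 level over 37 arrays (horizontal axis); circles are the brightest probe set of each gene, triangles the others, and filled symbols have an adjusted p under 0.05. Above a level of about 10 nearly all probe sets lie above 0, and falls are seen mainly among the dimmer triangles, with the Psmd11 probe set at -0.24 among the exceptions.

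Promoters were read for 41 of the 49 genes from RefSeq windows of the GRCm38.p6 build, 250 bases before to 50 after the start of transcription. Short motifs were searched on both strands, and matches were counted also where they overlapped. The windows of all genes were 27025, 1 for each gene with a window, measured here or not. They are thus another set than the 18193 genes used above. The core of the antioxidant response element bound by NRF1 and NRF2, TGACNNNGC, was found in 6 of 41 windows (14.6%) and in 12.5% of all windows. The CCAAT box, bound by NF-Y, was in 15 of 41 (36.6%) and in 37.9% of all windows. The GC box GGGCGG, bound by SP1, was in 22 of 41 (53.7%), in 15 of the 25 windows of standard subunits (60%), and in 35.9% of all windows. The core of the interferon response element, GAAANNGAA, was in 6 of 41 (14.6%) and in 8.57% of all windows. A match is a description of the letters and not a bound site. Stretches of 5 genes are shown as examples, with the matches in capitals and positions counted from the start of transcription that the window uses. For Psma4 the annotated gene begins earlier than that start, at chr9:54950781, which lies inside the printed stretch. They are among the 11 genes whose R6/2 arrays all lay above the WT arrays, and the others of these are not shown. Each stretch holds at least 1 match, so the stretches do not link motifs to the rises.
Psma1, bases -130 to -31, minus strand of chr7:114276147-114276246, with 2 CCAAT boxes and 2 GC boxes, all apart: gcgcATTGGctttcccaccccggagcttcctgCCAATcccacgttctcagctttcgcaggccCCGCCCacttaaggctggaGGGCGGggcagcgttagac
Psmb5, bases -90 to -1, minus strand of chr14:54617996-54618085, with 1 antioxidant response element core: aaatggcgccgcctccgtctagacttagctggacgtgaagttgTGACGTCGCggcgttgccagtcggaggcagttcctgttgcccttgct
Psmd10, bases -150 to -1, minus strand of chrX:140956712-140956861, with 2 CCAAT boxes and 1 GC box: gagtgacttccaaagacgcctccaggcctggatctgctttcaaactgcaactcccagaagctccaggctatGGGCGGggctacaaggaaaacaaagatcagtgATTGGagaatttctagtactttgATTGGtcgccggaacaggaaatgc
Psma4, bases -130 to -61, plus strand of chr9:54950729-54950798, with 4 GC boxes of which 3 run into each other: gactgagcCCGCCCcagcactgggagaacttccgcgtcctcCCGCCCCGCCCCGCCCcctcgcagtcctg
Psme1, bases 1 to 30, plus strand of chr14:55578494-55578523, within its first exon, with 1 interferon response element core read on the other strand: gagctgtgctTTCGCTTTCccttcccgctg

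The genes that control or feed the proteasome were taken from a list of 36, of which 27 were measured. In R6/2 against WT cortex 17 of the 27 were higher and 2 were lower, with a median change of 0.15. Over all genes 28.1% were higher and 18.4% were lower. Of the regulators, Nfe2l3, a relative of NRF1, was higher by 0.43 (SE 0.069, adjusted p = 2.9e-06), and Ngly1, the enzyme that activates NRF1 by removing sugar chains, by 0.27 (SE 0.035, adjusted p = 6.1e-08). Nfe2l1, which encodes NRF1, the factor that raises proteasome genes when the proteasome is blocked, had a change of -0.081 (SE 0.040, adjusted p = 0.11). Fbxw7, the substrate receptor of a ubiquitin ligase that marks NRF1 for degradation, had a change of -0.69 (SE 0.045, adjusted p = 3.5e-15). Uba6, an enzyme that activates ubiquitin, was higher by 0.39 (SE 0.068), Ublcp1, a phosphatase of the 26S complex, by 0.32 (SE 0.026), and Uchl5, a deubiquitinase of the 19S particle, by 0.28 (SE 0.059). In Dble::R6/2 against Hdac4HET cortex 18 of the 27 were higher and 3 were lower, against 28.4% and 14.1% of all genes. In this comparison Nfe2l3 had a change of 0.38, Fbxw7 one of -0.69 and Uba6 one of 0.082 (adjusted p = 0.38).

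Loss of 1 Hdac4 allele alone gave no call among the proteasome genes. In Hdac4HET against WT cortex 0 were higher and 0 were lower with limma, and 0 by the methods' t-test, where the shares over all genes with limma were 1.33% higher and 0.511% lower. At an unadjusted p under 0.05, 6 were higher and 1 was lower, against 10.6% and 8.53% of all genes. Of 16 olfactory bulb markers 13 were higher in the same comparison, with a median change of 1.04, and their part in the values of the proteasome genes was not tested. The median change of the 49 genes was 0.0041. The lowest adjusted p was 0.08, for Psme3ip1, with a change of 0.10 (SE 0.031). The largest positive change was that of Psme4, at 0.14 (SE 0.047, adjusted p = 0.11), with levels of 9.23 to 9.52 in WT and 9.45 to 9.66 in Hdac4HET cortex. The largest negative change was that of Psmb2, at -0.088 (SE 0.041, adjusted p = 0.27), with levels of 10.19 to 10.49 and 10.02 to 10.37. The groups overlapped in both genes and neither was called. Psma5 and Psma8 followed Psmb2 with changes of -0.056 (adjusted p = 0.35) and -0.051 (adjusted p = 0.75). The cutting subunits had medians close to those of WT, at 11.20 for Psmb5, 10.96 for Psmb6 and 10.45 for Psmb7, and of them Psmb5 had a change of 0.047, Psmb6 one of -0.0022 and Psmb7 one of 0.0073. The immune subunits Psmb8, Psmb9 and Psmb10 had Hdac4HET medians of 6.75, 6.51 and 9.53, and Psme1, Psme3 and Psmf1 had medians of 9.45, 8.53 and 8.60. Each of these changes was under 0.05 on the log2 scale in size.

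Loss of 1 Hdac4 allele in R6/2 cortex was followed by little further change. In Dble::R6/2 against R6/2 cortex 2 genes were higher and 0 were lower, against 1.53% and 0.429% of all genes, and the median change was 0.027 beside 0.022 over all genes. Psma6 ran from 11.45 to 11.60 in R6/2 and from 11.53 to 11.68 in Dble::R6/2 cortex, and was higher by 0.092 (SE 0.023, adjusted p = 0.032). Psmb5 ran from 11.21 to 11.35 and from 11.27 to 11.43, and was higher by 0.091 (SE 0.025, adjusted p = 0.046). The arrays overlapped in both genes, both genes had already been called higher in R6/2 against WT cortex, and both calls were lost with only the genotypes compared, with the methods' t-test or without the doubted arrays. Psma6 was named after its values were seen. At an unadjusted p under 0.05, 10 were higher and 2 were lower, against 11.4% and 4.77% of all genes, and the t-test called 0. Psmb6 had a change of 0.090 (SE 0.025) at an adjusted p of 0.051. The rises and falls of largest size were not called, among them Psmd9 at 0.15 (SE 0.061, adjusted p = 0.19), Psmg4 at 0.14 (SE 0.072, adjusted p = 0.34) and Psmc4 at -0.13 (SE 0.055, adjusted p = 0.21). Psmb10 and Psmb9 had changes of 0.11 (SE 0.052, adjusted p = 0.28) and -0.13 (SE 0.079, adjusted p = 0.44), and Psma1 one of -0.067 (SE 0.030, adjusted p = 0.24). Psme1 had a change of 0.074 (SE 0.052, adjusted p = 0.5), and its Dble::R6/2 arrays, at 9.84 to 10.17, lay largely within the range of the R6/2 arrays. This comparison shares the R6/2 arrays with that of R6/2 against WT.

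The transgene effect was measured a second time as a difference between other arrays, by comparing Dble::R6/2 with Hdac4HET cortex. Both comparisons came from 1 fit with a shared estimate of spread, so their calls were not independent. With only the genotypes compared in a fit, 31 genes were higher in R6/2 against WT and 39 in Dble::R6/2 against Hdac4HET. In the fit of all arrays, 39 of the 49 genes were higher in Dble::R6/2 than in Hdac4HET cortex and 1 was lower. Over all genes 28.4% were higher and 14.1% were lower, and 41.9% were higher over the genes at or above the members' median level. The median change was 0.15, beside 0.040 over all genes. With both thresholds 1 gene was higher and 0 were lower, against 2.6% and 4.08% of all genes. This gene was again Psme1, which ran from 9.29 to 9.57 in Hdac4HET and from 9.84 to 10.17 in Dble::R6/2 cortex, with a change of 0.56 (SE 0.052, adjusted p = 3.4e-11). The probe set shared by Psme2b and Psme2 was higher by 0.29 (SE 0.030, adjusted p = 3.4e-10) with no overlap. Every Dble::R6/2 array was above every Hdac4HET array for 16 genes, or 32.7%, against 8.72% of all genes. Of these 16, 8 also had no overlap in R6/2 against WT. The share of all genes without overlap in both comparisons was not counted, so the 8 describe these genes only.

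By role, 13 of 14 standard core genes, 15 of 17 genes of the 19S particle and 7 of 7 assembly factors were higher in Dble::R6/2 than in Hdac4HET cortex. Without the arrays with raised bulb markers 12 core genes, 12 genes of the 19S particle and 3 assembly factors were called, and without those against the labelled sex 13, 13 and 4. With all arrays the 7 beta subunits rose, among them Psmb2 by 0.25 (SE 0.040, adjusted p = 3.5e-06), Psmb7 by 0.24 (SE 0.034, adjusted p = 3.4e-07), Psmb5 by 0.17 and Psmb6 by 0.15. Psmb2 ran from 10.02 to 10.37 in Hdac4HET and from 10.36 to 10.61 in Dble::R6/2 cortex. Psma7, Psmc5 and Psmd7 were not called here either, with changes of 0.037, 0.037 and -0.0035. Psmb8 rose by 0.33 (SE 0.082, adjusted p = 0.0011), and Psmb9 and Psmb10 had changes of 0.068 (adjusted p = 0.56) and 0.091 (adjusted p = 0.18). Psmb8 ran from 6.25 to 6.86 in Hdac4HET and from 6.80 to 7.24 in Dble::R6/2 cortex, so that its groups overlapped. Psmd10 ran from 8.33 to 8.56 and from 8.73 to 8.82, with no overlap, and rose by 0.28 (SE 0.030, adjusted p = 1.9e-09). Psmd9 rose by 0.26 (SE 0.061, adjusted p = 0.00082), from a median of 8.05 to one of 8.35. Psme3 rose by 0.19 (SE 0.038, adjusted p = 0.00011), and Psmf1 had a change of -0.027 (SE 0.039, adjusted p = 0.65), while its second probe set rose by 0.26 (adjusted p = 3.7e-05). Psme4 ran from 9.45 to 9.66 in Hdac4HET and from 9.25 to 9.52 in Dble::R6/2 cortex, with some overlap. It was the gene called lower, by 0.16 (SE 0.046, adjusted p = 0.0061), and this call was lost without the arrays with raised bulb markers (change -0.20, adjusted p = 0.092). A dim probe set of Psmd13, at 5.13, was higher by 0.42 (adjusted p = 3.3e-05), with a change of 0.0036 in R6/2 against WT cortex.

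The arrays with raised olfactory bulb markers fell mostly on the Hdac4HET side of this comparison, where the mean of 16 markers ran from 6.11 to 8.24, against 5.95 to 6.85 in Dble::R6/2 cortex. Without these 8 arrays 2 Hdac4HET arrays were left, and 29 proteasome genes were higher in Dble::R6/2 than in Hdac4HET cortex, against 13.9% of all genes, with a median change of 0.18. The 10 genes that lost their call were Psmb3, Psmc1, Psmc4, Psmd9, Psmd13, Psme3, Psme3ip1, Psmg1, Psmg3 and Psmg4. Without the 6 arrays against the labelled sex 34 were higher, against 23.9% of all genes. Here Psmc1, Psmd13, Psme3ip1, Psmg1, Psmg3 and Psmg4 lost their call and Psmc3ip gained one. Without both kinds of arrays, a choice made after the data were seen, 24 were higher, against 11.8% of all genes, with a median change of 0.18. Beside the 10 genes above, Psmb1, Psmb6 (0.13, adjusted p = 0.052), Psmb8 (0.39, adjusted p = 0.057), Psmc3 and Psmd3 then lost their call. All 39 genes called higher with all arrays kept a change above 0 under these 3 steps. In R6/2 against WT cortex, the same steps left 35, 34 and 33 genes higher, against 27.8%, 27.7% and 27.6% of all genes.

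**Figure D5:**
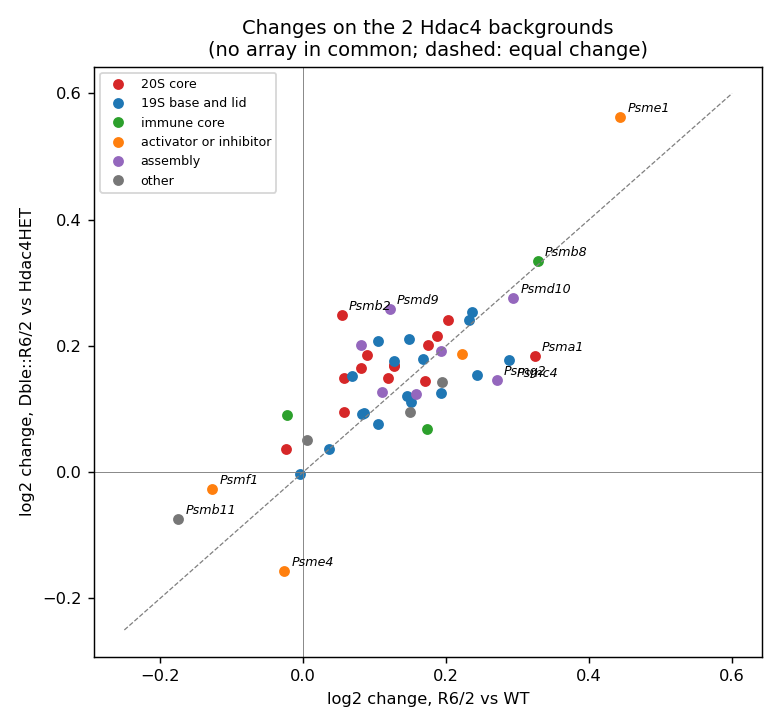
Log2 change of each of the 49 genes in R6/2 against WT cortex (horizontal axis) and in Dble::R6/2 against Hdac4HET cortex (vertical axis), which share no array; colours give the role of the gene and the dashed line marks equal change. Of the 49 genes, 47 have the same sign in both comparisons, Psme1 stands apart at 0.44 and 0.56, and Psmb2 and Psma1 lie on opposite sides of the dashed line.

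The 2 comparisons gave the same sign for 47 of 49 genes and for 13368 of all 18193 genes. Of the 49, 34 were called higher in both, against 3949 of the 18193 genes. Psmb2, Psmb3, Psmb6, Psmd9 and Psmg4 were called higher only on the Hdac4HET background and Psmc3ip only on the WT background, which does not show that the effects differed. That difference was tested as the interaction of R6/2 and Hdac4HET. With limma 0 genes were called higher and 0 lower, against 0.55% and 0.495% of all genes. At an unadjusted p under 0.05 the interaction was above 0 for 5 genes and below 0 for 3, against 11.3% and 7.91% of all genes. The lowest adjusted p was that of Psmb2, with an interaction of 0.19 (SE 0.057, adjusted p = 0.069), where the transgene effect was 0.054 on the WT and 0.25 on the Hdac4HET background. Psma1 had an interaction of -0.14 (SE 0.043, adjusted p = 0.08), with effects of 0.32 and 0.18. Psmb2 passed the threshold with array quality weights (adjusted p = 0.0498) or without R6/2 replicate 6 (adjusted p = 0.0494), and Psma1 without R6/2 replicate 4 (adjusted p = 0.044). For Psme1 the interaction was 0.12 (SE 0.075, adjusted p = 0.39). Psmd9 and Psmg4 had interactions of 0.14 (adjusted p = 0.4) and 0.12 (adjusted p = 0.54), and Psme4 and Psmg2 both had one of -0.13 (adjusted p = 0.27 and 0.17).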

How the data were processed

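Cortex RNA of 37 mice was measured on Affymetrix mouse genome arrays after 3′ labelling. The authors deposited log2 values per probe set. The method of summarising and normalizing them was not given in the sources used, and the paper's methods leave out low-quality arrays without naming them, so all 37 arrays were used as deposited. Genotypes, replicates and sex came from the labels. Genes were named through the platform annotation, and 110 of 126 listed genes of the pathway, cell types and controls were measured.

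All arrays entered 1 model of the 4 genotypes (limma 3.58.1 in R 4.3.3, lmFit and eBayes with a trend), with Benjamini-Hochberg adjustment over 45037 probe sets. Adjusted p values are from this fit, except where an alternative test, fit or set of arrays is named beside them. Calls used an adjusted p under 0.05, at any size or above 1.3-fold. The fit was tested on simulated data. Members and lists were chosen with earlier results of these data known. Named genes were the cutting, immune, activator and inhibitor genes, Psmc3ip, the largest changes of each class and comparison, members past both thresholds on any probe set, and pathway genes called above 1.2-fold. No protein sequences were analysed here. Alternatives were quantile normalization, only bright probe sets, a fit of the genotypes compared alone, sex as a term, the methods' t-test, a replicate block, array weights, other probe sets, and arrays left out. Same-numbered arrays of different genotypes deviated together with a median correlation of 0.021, against -0.0029 for arrays of other numbers. Of 54 same-numbered pairs 18 were above 0.1, with a highest value of 0.30. These correlations cannot settle whether the numbers pair mice, and the main fit used no pairing. The number of arrays limits the precision.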

Additional observations from a re-analysis of the deposited data

Results flagged for a closer look

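Each of the 49 genes was searched within each genotype for 1 array that stood far from the others (Dixon's test at 95%). Of 196 groups, 10 held such an array, and chance flags about 1 in 20. In R6/2 cortex these were Psmc6 and Psmd6, both in replicate 6 and both above the rest, at 10.67 and 11.28, Psmf1 in replicate 4 at 8.71, above the rest, Psmc2 in replicate 3 at 11.22, below the rest, and Psmg3 in replicate 8 at 8.48, below the rest. In WT cortex Psmc4 stood at 11.21 in replicate 5. In Hdac4HET cortex Psma4 stood at 11.10 in replicate 8, below the rest, and Psmg1 at 8.82 in replicate 7. In Dble::R6/2 cortex Psmb11 stood at 4.03 in replicate 2 and Psmd13 at 9.41 in replicate 9. No interaction of R6/2 and Hdac4HET was called among the 49 genes.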

How the results depend on the processing

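The count of proteasome genes higher in R6/2 than in WT cortex, 35, lay between 24 (the least bright probe set of each gene) and 35 over the alternatives and between 32 and 37 with each array left out. Its median change lay between 0.11 and 0.14 over the alternatives. With the replicate block, in which Dble::R6/2 replicate 10 has no partner and so carries no weight, 34 were higher and 1 was lower in R6/2 against WT, and 39 were higher in Dble::R6/2 against Hdac4HET. The count of 2 lower genes in R6/2 against WT was 1 with sex, the least bright probe sets, the methods' t-test, only bright probe sets, only the genotypes compared, quantile normalization or the block, and 1 to 2 with arrays left out, where the call of Psmb11 was lost for 18 of 37 arrays. For Dble::R6/2 against Hdac4HET, 24 were higher without both kinds of arrays, the 1 lower gene became 0 without raised bulb arrays, without both kinds or without probe sets ending in _x_at or _s_at, and 2 passed 1.3-fold with the least bright probe sets, without raised bulb arrays or without arrays against the labelled sex. On the least bright probe sets 3 passed it in R6/2 against WT. For Dble::R6/2 against R6/2, the 2 higher genes became 0 with the t-test, only the genotypes compared, the block or either kind of array left out, 1 with quantile normalization or without _x_at and _s_at probe sets, 3 with array weights, sex or only bright probe sets, where Psmb6 gained its call, and 0 to 4 with single arrays left out (0 without Dble::R6/2 replicate 9 or 10 or R6/2 replicate 2, 3, 5, 8 or 9, 4 without R6/2 replicate 4). Hdac4HET against WT gave 0 to 1 higher with arrays left out (Psme3ip1 without WT replicate 8), and the interaction 0 to 1 higher (Psmb2 without R6/2 replicate 6, and with array weights) and 0 to 1 lower (Psma1 without R6/2 replicate 4). Reversed on the least bright probe sets were Psma5 (-0.021), Psmb8 (-0.0086, also the immune median, -0.0086), Psmd4 (-0.033) and Psme3 (-0.063) in R6/2 against WT and Psma6 (-0.062) in Dble::R6/2 against R6/2. The cause was not tested.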
